A study of Mus musculus with 14 samples.

Results

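The nuclear-encoded subunits of the mitochondrial respiratory chain and ATP synthase were followed by symbol in the deposited gene table of a mouse retinal microglia study. Symbols beginning Nduf with A, B, C, S or V and a number, Sdh, Uqcr, Cox4 to Cox8 and Atp5 were taken, and 10 rows marked as pseudogenes by their symbol were left out. This gave 84 members of 35735 gene rows, of which 36 belong to complex I, 4 to complex II, 8 to complex III, 19 to complex IV and 17 to complex V. Ndufa4 carries a complex I symbol and was counted there, although its protein is a subunit of complex IV. Cox7a2l, counted in complex IV, joins complexes III and IV in supercomplexes.

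The study asked how retinal microglia of 2 APOE genotypes differ in a glaucoma model. Mice were 12 weeks old and of genotype APOE E3/E3 or E4/E4. Eyes were injected either with microbeads, which block the outflow of fluid and raise the pressure in the eye, or as a sham. The 14 libraries comprised 4 of APOE E3/E3 sham retinas, 4 of APOE E4/E4 sham retinas, 3 of APOE E3/E3 microbead retinas and 3 of APOE E4/E4 microbead retinas. All were made from CD11b+, Ly6c- and Fcrls+ sorted cells, 100 to 600 cells a retina. The groups are called APOE3 sham, APOE4 sham, APOE3 microbead and APOE4 microbead below. Whether each retina is from a different animal is not given in the labels. The p-values therefore measure only the spread between these samples, which may be technical.

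Complexes I and II pass electrons from NADH and succinate to ubiquinone, complex III passes them to cytochrome c, and complex IV passes them to oxygen. Complexes I, III and IV pump protons across the inner mitochondrial membrane, and complex V, the ATP synthase, lets them flow back to make ATP. Most subunits are encoded in the nucleus and imported, while the remaining core subunits of complexes I, III, IV and V are encoded by mitochondrial DNA. Several complex IV subunits have isoforms that are specific to heart and skeletal muscle, lung or testis. Microglia draw on oxidative phosphorylation in the resting state, and activated macrophages and microglia are known to change the balance between it and glycolysis.

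Estimated reads per library ranged from 453429 to 730134. In each library 8 predicted genes led by Gm10800, whose sequence is known to be rich in satellite repeats, together took 37.2% to 63.0% of the reads, leaving 240222 to 456534 for all others. The 84 members held 1120 to 3676 reads per library. A member tested had a median of 17.0 reads in a library, and 43 of those tested averaged under 20, so only large differences were detectable for most. Of the 84 members 82 had a read, and 71 passed the filter on low counts and were tested among 7605 genes. All 12 microglia markers were detected, with summed CPM (counts per 1e+06 reads, with library sizes scaled by TMM) of 14324 to 19512 in APOE3 sham, 14261 to 17182 in APOE4 sham and 14345 to 16753 in APOE4 microbead libraries. The APOE3 microbead libraries were lower, at 6985 to 11800. There the means of Itgam (223 and 372 CPM in sham and microbead), of Fcrls (221 and 220 CPM), the sorting marker, and of Olfml3 (984 and 937 CPM) did not follow the sum. In these bulk samples a smaller number of cells of a type and less RNA per cell cannot be told apart.

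Levels between members were compared per transcript length, in TPM, the length-scaled share of transcripts given in the deposited table. The most abundant mRNA was Cox4i1, the common isoform of complex IV subunit 4, at 63.9 ± 32.8 TPM (SD, n = 14), and it was the highest member in 11 of 14 libraries. Cox8a, the smallest complex IV subunit, followed at 54.8 ± 33.8 TPM and lay below Cox4i1 in 11 of 14 libraries. Ndufa4 (44.5 ± 19.5 TPM), Atp5b (40.7 ± 21.3 TPM), which encodes the catalytic beta subunit of ATP synthase, and Cox6b1 (40.4 ± 28.4 TPM), on the intermembrane side of complex IV, came next. These 3 could not be ordered: Ndufa4 exceeded Atp5b in 6 of 14 libraries, and Atp5b exceeded Cox6b1 in 8 of 14. The spread of TPM over libraries is wide in part by construction, since TPM is a share of all transcripts, those of the 8 dominant genes included.

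By complex, the median of the members' mean levels was 31.0 TPM for the 11 tested of complex IV, 21.0 TPM for the 16 of complex V, 19.1 TPM for the 8 of complex III, 13.04 TPM for the 32 of complex I and 8.41 TPM for the 4 of complex II. Within complex II, Sdhb, the iron-sulfur subunit, stood at 15.3 ± 8.36 TPM and Sdha, the flavoprotein subunit, at 11.7 ± 4.68 TPM. The membrane anchors Sdhd and Sdhc were lower, at 5.16 ± 3.25 and 4.14 ± 3.52 TPM, and Sdhc was the lowest of the 71 members tested. The lowest tested in complex I was Ndufs1, its largest iron-sulfur subunit, at 6.80 ± 3.19 TPM. In complex III, Uqcrq, a small subunit of the membrane part, was highest at 27.7 ± 18.1 TPM and the core protein gene Uqcrc2 lowest at 6.05 ± 3.07 TPM. In complex V the alpha subunit Atp5a1, present in the same number of copies as beta in the assembled enzyme, stood at 17.7 ± 6.58 TPM beside 40.7 for Atp5b. Their reads over the 14 libraries were closer, at 1165 and 1371. The TPM gap rests largely on the transcript lengths assigned, 3597 and 1920 bases. The lowest tested were Cox5a in complex IV, at 16.6 ± 11.3 TPM, and Atp5o in complex V, at 11.9 ± 6.59 TPM.

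**Figure D1:**
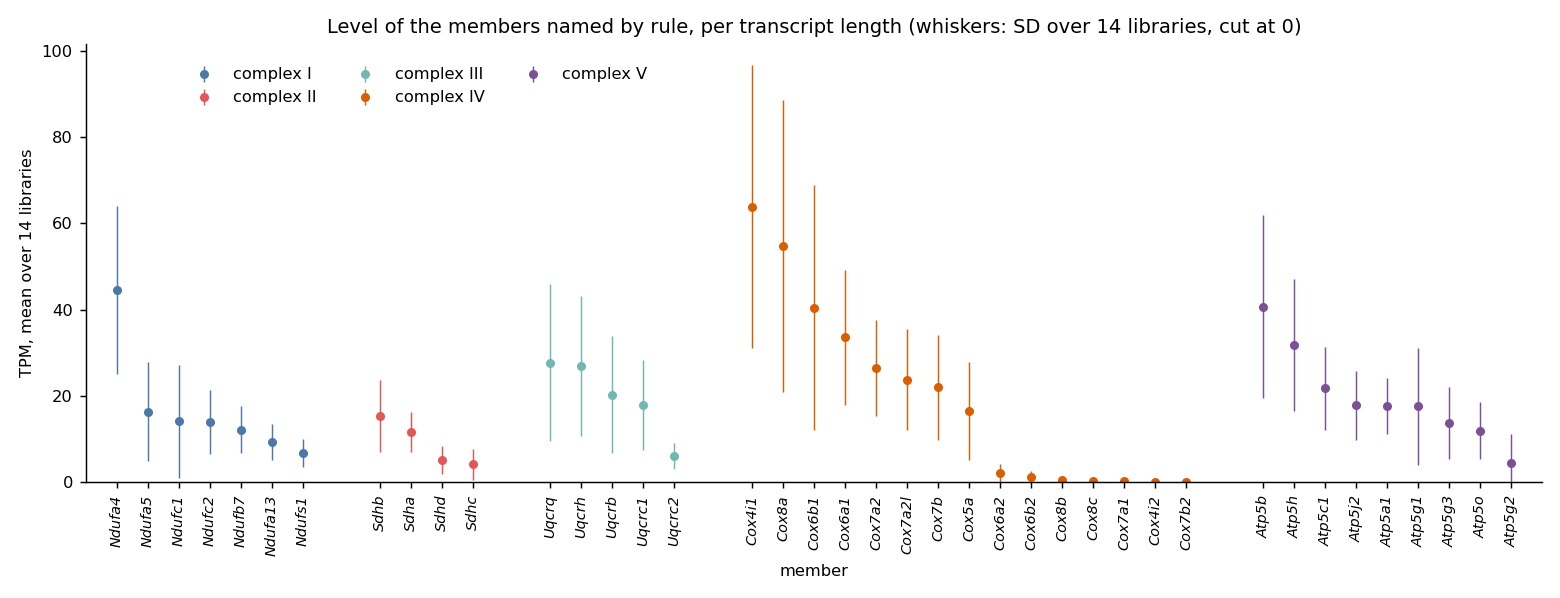
Mean level in TPM over 14 libraries of the 40 members named by rule, with whiskers of 1 SD cut at 0, ordered within complexes I to V. Cox4i1 is highest at 63.9 TPM, and the 7 complex IV isoforms at the right end of its block lie between 0 and 2.12 TPM.

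Isoforms known from other tissues were at or near 0. Cox4i2, the isoform of lung that replaces Cox4i1 under low oxygen, had 3 reads over all 14 libraries beside 1113 for Cox4i1. The muscle isoforms Cox7a1 and Cox8b had 1 and 3 reads, the testis isoforms Cox8c and Cox6b2 had 3 and 11, and Cox7b2 had 0. Cox6c2, the 1 member that the annotation types as a processed pseudogene although its symbol does not mark it as one, also had 0. Their counterparts Cox7a2 (26.4 ± 11.1 TPM), Cox7b (22.0 ± 12.2 TPM) and Cox6b1 were measured in all 14 libraries. A count of 0 allows up to 3 reads, so low expression of these isoforms was not detectable at this depth.

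The exception was Cox6a2, the heart and skeletal muscle isoform of Cox6a1. It had 33 reads in all, beside 356 for Cox6a1, and too few for the test. Its levels were 3.44, 3.51, 0 and 3.597 CPM in the APOE3 sham group and 11.3, 2.23 and 16.0 CPM after microbeads. In APOE4 they were 0, 0, 0 and 1.89 CPM in sham and 6.04, 4.98 and 5.19 CPM in microbead libraries. Reads were thus more frequent in the microbead groups of both genotypes, but the APOE3 groups overlapped. Scaled for depth, the ratio of summed reads was 2.97 (exact 95% interval 1.16 to 8.55, 16 against 7 reads) in APOE3 and 12.1 (1.68 to 530.2, 9 against 1 read) in APOE4, and these intervals cover counting error only. With no filter on low counts, edgeR gave an adjusted p of 0.648 and 0.815 for these differences. Cox6a2 (chr7:128205435-128206387, minus strand, GENCODE M21 on GRCm38) lies within Itgad on the opposite strand and 54778 bases from Itgax, both of which encode myeloid integrins. Itgad had 5 and 3 reads in the sham and microbead groups of APOE3, and 6 and 1 in those of APOE4. Whether counting used strand is not given in the sources used here.

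Atp5g2, which with Atp5g1 and Atp5g3 encodes the c subunit of the rotating ring of complex V, varied widely between replicates. It stood at 50.3, 0, 8.87 and 18.9 CPM in the APOE4 sham libraries and at 0, 1.66 and 1.73 CPM in APOE4 microbead libraries. Its APOE3 sham levels were 13.7, 0, 2.03 and 0 CPM, and its APOE3 microbead levels 2.26, 10.01 and 1.78 CPM. In APOE4 the ratio of summed reads, scaled for depth, was 0.0625 (exact 95% interval 0.00734 to 0.240, 2 against 43 reads, counting error only), and edgeR with no filter on low counts called it (log2 fold change -3.80 ± 0.95 SE, adjusted p = 0.0320). Of the 43 APOE4 sham reads, 28 came from replicate 1. The mature c subunit is the same for the 3 genes and pseudogene copies exist. Whether reads shared with these enter the estimates of Atp5g2 was not tested. Of the other c subunit genes, Atp5g1 stood at 17.6 ± 13.6 TPM and Atp5g3 at 13.7 ± 8.25 TPM. Beside Atp5g2 and the complex IV isoforms, Ndufa11, Ndufb4, Ndufb6 and Ndufs6 of complex I missed the filter, with 42 to 112 reads each.

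Microbead injection was compared with sham injection within each genotype. In APOE3 retinas 4 members rose: Cox4i1, Cox7a2l and Cox8a of complex IV and Ndufc2 of complex I. No member fell. Over all genes 5.22% were called in either direction (adjusted p under 0.05) and 3.54% were called higher, so 4 of 71 members is close to the background share. The direction was shared more widely than the calls: 69 of 71 members had a log2 fold change above 0, with a median of 0.50, beside 48.5% of all genes and a median of -0.02.

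Cox4i1 stood at 117, 82.5, 118 and 107 CPM in the APOE3 sham libraries and at 183, 225 and 178 CPM in the APOE3 microbead libraries. Every microbead library lay above every sham library, and replicate 2 was highest. The log2 fold change was 0.89 ± 0.20 (SE; adjusted p = 0.00552). The gene (chr8:120668222-120674207, plus strand) overlaps Emc8 and Gm20388 in the annotation.

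Cox7a2l, the supercomplex factor (chr17:83501918-83517330, minus strand), stood at 70.4, 38.6, 69.1 and 51.6 CPM in APOE3 sham and at 147, 122 and 83.5 CPM in APOE3 microbead libraries. The groups did not overlap, and microbead replicate 3 lay closest to the sham range. The log2 fold change was 1.03 ± 0.26 (SE; adjusted p = 0.0131).

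Cox8a (chr19:7215153-7217616, minus strand) stood at 49.8, 28.1, 52.9 and 55.1 CPM in APOE3 sham and at 83.7, 125 and 76.4 CPM in APOE3 microbead libraries. Again all 3 microbead libraries lay above all 4 sham libraries, and the log2 fold change was 1.04 ± 0.26 (SE; adjusted p = 0.0132). Ndufc2, an accessory subunit in the membrane arm of complex I (chr7:97400003-97407802, plus strand), stood at 6.87, 14.04, 12.2 and 8.39 CPM in APOE3 sham and at 22.6, 28.9 and 33.7 CPM in APOE3 microbead libraries. For Ndufc2 it was microbead replicate 3 that was highest, and the log2 fold change was 1.47 ± 0.41 (SE; adjusted p = 0.0297). It rested on 25 reads in the sham and 55 in the microbead group, and a processed pseudogene overlaps it.

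**Figure D2:**
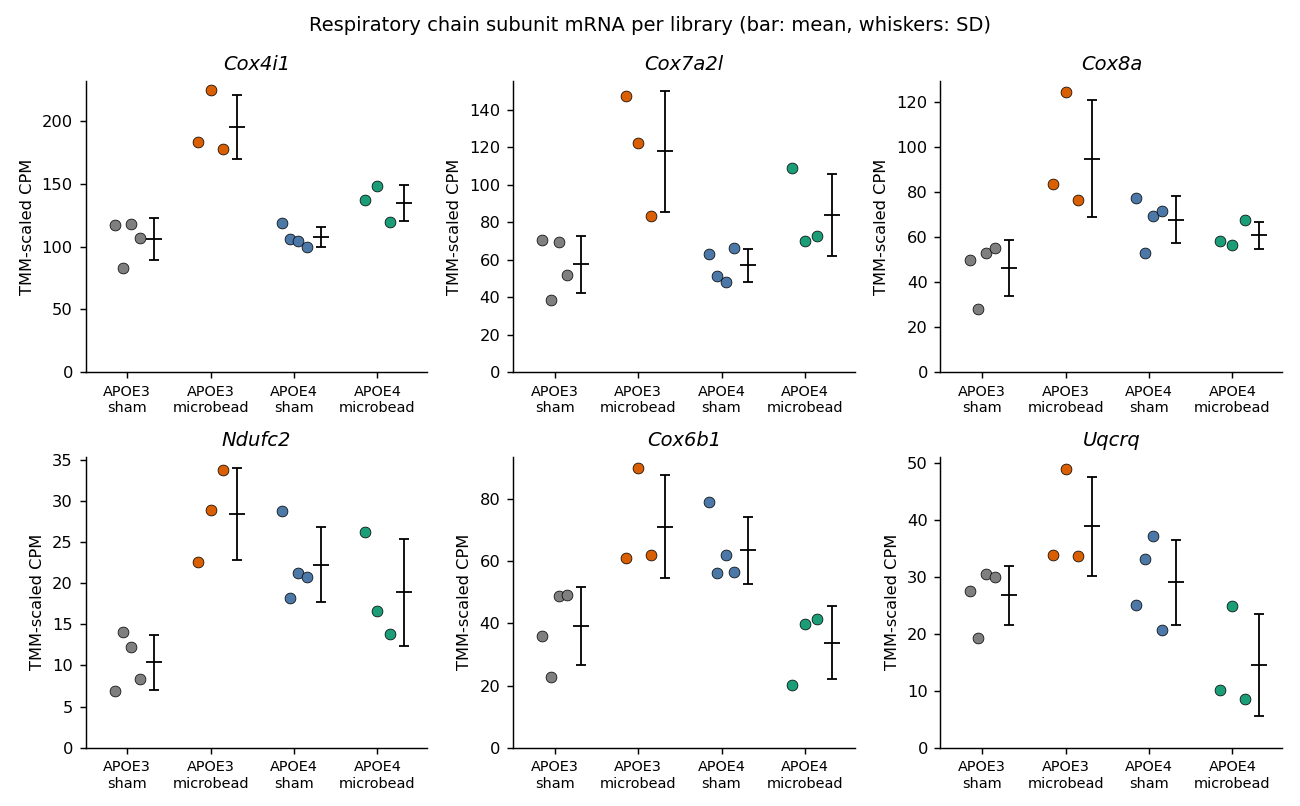
TMM-scaled CPM of 6 members in each of the 14 libraries, with the mean and SD of each group beside its points. In APOE3 the 3 microbead libraries lie above the 4 sham libraries in every panel, while in APOE4 Cox6b1 is lower in all 3 microbead libraries (20.1 to 41.5 CPM) than in the 4 sham libraries (56.3 to 79.0 CPM).

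The 4 calls were lost, with 0 members called, without APOE3 microbead replicate 2, with library totals in place of TMM, with length offsets, when only the libraries compared were fitted, and with limma on log2(TPM + 1). Without APOE3 sham replicate 2, the library with the lowest summed level of the members, 2 were called. The log2 fold changes stayed between 0.75 and 0.95 for Cox4i1, 0.56 and 1.23 for Cox7a2l, 0.72 and 1.18 for Cox8a, and 1.32 and 1.71 for Ndufc2 over the alternatives fitted.

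The promoters of called members are shown, because respiratory chain promoters are known for binding sites of NRF1 and of the ETS factor GABP. That of Uqcr11, a small complex III subunit, is added as the only member matching both motifs, and it is not typical. Of the 68 members searched, 10 held an NRF1 match and 5 an ETS match. The sequences are RefSeq's on GRCm38.p6, from 250 bases before to 50 after the start site, with matches to GCATGCGC (NRF1) or CCGGAAGT (ETS), on either strand, in capitals. Cox4i1 is not shown.
Cox8a, chr19:7217567-7217866, minus strand: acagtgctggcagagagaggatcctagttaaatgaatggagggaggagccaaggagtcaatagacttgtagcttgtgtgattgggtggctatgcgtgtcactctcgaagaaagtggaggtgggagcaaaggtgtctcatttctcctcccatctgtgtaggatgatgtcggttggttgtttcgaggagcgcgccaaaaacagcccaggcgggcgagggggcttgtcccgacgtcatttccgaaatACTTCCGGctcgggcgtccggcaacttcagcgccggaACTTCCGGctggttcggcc
Cox7a2l, chr17:83514284-83514583, minus strand: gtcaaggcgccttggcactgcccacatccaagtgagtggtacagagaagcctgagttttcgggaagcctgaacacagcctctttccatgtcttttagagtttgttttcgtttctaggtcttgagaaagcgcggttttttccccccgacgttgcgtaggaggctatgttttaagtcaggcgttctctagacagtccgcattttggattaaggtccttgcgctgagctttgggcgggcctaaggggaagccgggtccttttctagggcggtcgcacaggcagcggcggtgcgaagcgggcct
Ndufc2, chr7:97399753-97400052, plus strand: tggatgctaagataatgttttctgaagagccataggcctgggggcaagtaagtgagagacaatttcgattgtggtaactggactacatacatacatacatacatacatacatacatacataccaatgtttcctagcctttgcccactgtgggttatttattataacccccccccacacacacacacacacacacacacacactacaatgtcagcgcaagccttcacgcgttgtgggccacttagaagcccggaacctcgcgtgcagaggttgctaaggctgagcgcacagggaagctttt
Uqcr11, chr10:80406772-80407071, minus strand: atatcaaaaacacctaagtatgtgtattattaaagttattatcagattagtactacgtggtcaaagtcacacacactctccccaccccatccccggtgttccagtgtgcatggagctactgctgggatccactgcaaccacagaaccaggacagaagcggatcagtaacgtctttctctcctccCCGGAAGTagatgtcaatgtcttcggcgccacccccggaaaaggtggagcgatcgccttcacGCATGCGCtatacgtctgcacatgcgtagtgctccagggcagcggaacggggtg
Cox8a held 2 ETS matches, beginning at positions -6 and 32 from the start site and both on the opposite strand. Cox7a2l and Ndufc2 held no match to either motif. Uqcr11 held an ETS match at -66 and an NRF1 match at -4. Its level was 41.2, 10.5, 28.5 and 31.2 CPM in APOE3 sham and 47.5, 36.7 and 42.6 CPM in APOE3 microbead libraries, which overlap (log2 fold change 0.58 ± 0.40 SE, adjusted p = 0.577).

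Of the 84 members 68 matched the promoter table, with 73 promoters. The NRF1 letters stood in 13.7% of these promoters and in 2.71% of all 32851 promoters, with 5.45% in promoters of the other genes tested. The YY1 motif AAGATGGC stood in 13.7% of member promoters, beside 2.75% of all and 5.00% of the other tested. The ETS letters stood in 6.85% of member promoters, beside 3.89% of all and 9.36% of the other tested, so they were not more frequent than in other genes measured here. The ERR motif TCAAGGTCA stood in 2.74% (Atp5g3 and Sdhd), beside 0.423% and 0.198%. Both strands were searched and no motif was tied to binding by these data. A start site of another gene on the opposite strand within 1000 bases was annotated for 31 members, 37.3% of the protein-coding ones beside 17.1% of genes tested. Of these partners 14 were tested, and their median log2 fold change in APOE3 was -0.09. Of the 14, 2 were called, both higher: Rps28 beside Ndufa7 (1.09, adjusted p = 0.00640) and Eef1b2 beside Ndufs1 (1.06, adjusted p = 0.00165). Over all genes 3.54% were called higher. Rps28 encodes a cytosolic ribosomal protein, and 57 of 81 such genes tested were called higher in APOE3. A part of shared promoters was not tested.

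By complex, the median log2 fold change in APOE3 was 0.78 for complex IV, 0.64 for complex II, 0.56 for complex III, 0.49 for complex V and 0.39 for complex I. An unadjusted p under 0.05 was reached by 18 members, all higher, beside 640 genes higher and 479 lower of the 7605. In 14 members every APOE3 microbead library lay above every APOE3 sham library, which held for 7.59% of all genes, and in 0 members below, beside 5.54% of all genes. The 14 were Atp5j2, Cox4i1, Cox5b, Cox6b1, Cox7a2, Cox7a2l, Cox8a, Ndufa6, Ndufa7, Ndufa13, Ndufc2, Ndufv1, Sdhd and Uqcrq.

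In complex IV all 11 members tested had a log2 fold change above 0. Cox6b1 stood at 36.1, 22.8, 48.8 and 49.2 CPM in APOE3 sham and at 61.1, 90.1 and 62.2 CPM in APOE3 microbead libraries, with no overlap, but its log2 fold change of 0.87 ± 0.29 (SE) missed the threshold (adjusted p = 0.0851). Cox5b, the zinc-binding subunit, had a log2 fold change of 0.86 ± 0.31 (adjusted p = 0.122) and Cox7a2 of 0.78 ± 0.29 (adjusted p = 0.143). Cox5a and Cox6a1 were the smallest, at 0.23 ± 0.41 and 0.26 ± 0.32, and both groups overlapped. Cox5a was at -0.39 without microbead replicate 2, and Cox6a1 at -0.30 without replicates 1 and 2.

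Complex I held the widest range in APOE3, from -0.17 to 1.47. Ndufs7, an iron-sulfur subunit chosen after its values were seen, stood at 58.4, 31.6, 22.4 and 59.9 CPM in APOE3 sham and at 43.0, 38.9 and 51.5 CPM in APOE3 microbead libraries (log2 fold change 0.01 ± 0.34). The microbead values fell within the sham range. Ndufa13, an accessory subunit also known as GRIM-19, stood at 27.5, 24.6, 34.6 and 22.8 CPM in sham and at 67.8, 50.1 and 35.5 CPM in microbead libraries (0.90 ± 0.31, adjusted p = 0.0936). Its groups did not overlap, although replicate 3 lay just above the highest sham library. Ndufc1, the partner of Ndufc2 in the membrane arm, had a log2 fold change of 1.14 ± 0.44 (adjusted p = 0.163).

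In complex II, Sdha had a log2 fold change of 0.13 ± 0.23 in APOE3 and Sdhb of 0.42 ± 0.28, while Sdhc and Sdhd had 0.86 ± 0.49 and 0.86 ± 0.44. None passed the test (adjusted p = 0.371 to 0.899), and without microbead replicate 2 Sdha was at -0.18 and Sdhb at -0.04. All 8 members of complex III were above 0, from 0.22 for Uqcrb to 0.71 for Uqcr10, and none was called. Uqcrh, the hinge protein, had 0.65 ± 0.31 (adjusted p = 0.328), and Uqcrc1, a core protein, had 0.50 ± 0.26 (0.387). Uqcrq stood at 27.5, 19.3, 30.5 and 30.0 CPM in sham and at 33.9, 49.0 and 33.7 CPM in microbead libraries. These did not overlap, and the log2 fold change was 0.55 ± 0.35 (adjusted p = 0.529).

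In complex V all 16 members tested were above 0 in APOE3 and none was called. Atp5h, subunit d of the peripheral stalk, stood at 58.4, 43.9, 48.8 and 27.6 CPM in sham and at 97.2, 85.7 and 48.0 CPM in microbead libraries. Replicate 3 fell within the sham range, and the log2 fold change was 0.80 ± 0.29 (adjusted p = 0.119). Atp5g3 had 0.97 ± 0.38 (adjusted p = 0.185), Atp5j2, subunit f, had 0.82 ± 0.34 (0.216), and Atp5o, the protein that ties the stalk to the catalytic head, had 1.05 ± 0.46 (0.259). Without microbead replicates 1 and 2 Atp5o was at -0.23. Atp5a1 and Atp5b, the alpha and beta subunits of the head, had 0.27 ± 0.20 and 0.45 ± 0.24 (adjusted p = 0.632 and 0.395).

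**Figure D3:**
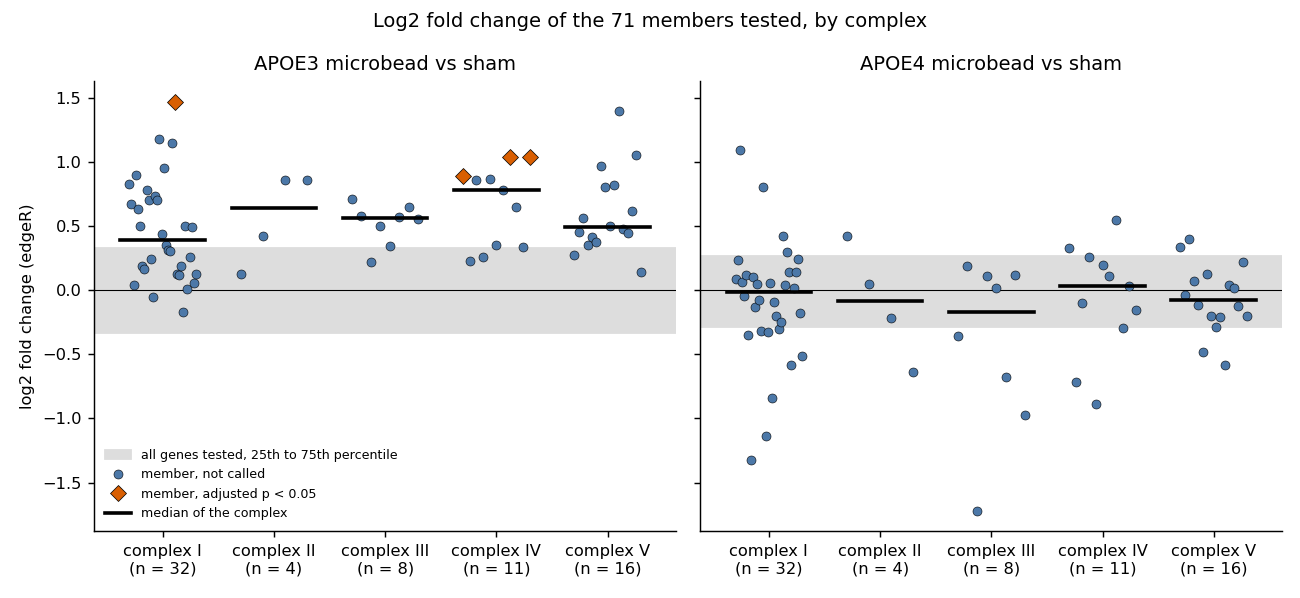
Log2 fold change (edgeR) of microbead over sham for the 71 members tested, by complex, in APOE3 (left) and APOE4 (right); black bars are medians, diamonds passed the test and the grey band holds the 25th to 75th percentile of all genes tested. In APOE3 the medians of the complexes lie between 0.39 and 0.78, and in APOE4 between -0.17 and 0.03.

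In APOE4 retinas no member was called between microbead and sham by edgeR or limma-voom, beside 0.224% of all genes, nor among the 47 members to which DESeq2 gave an adjusted p. An unadjusted p under 0.05 was reached by 0 members higher and 3 lower, beside 277 genes higher and 217 lower of the 7605. The log2 fold changes were split, with 35 of 71 above 0 and a median of -0.04. In 4 members (Atp5c1, Cox4i1, Cox7a2l and Sdha) every microbead library lay above every sham library, beside 5.0% of all genes, and in 3 (Cox6b1, Ndufa5 and Ndufc1) every one lay below, beside 4.06%.

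Cox4i1 and Cox7a2l, called in APOE3, had log2 fold changes of 0.33 ± 0.20 (adjusted p = 0.874) and 0.55 ± 0.27 (0.764) in APOE4. Cox7a2l stood at 62.9, 51.3, 47.9 and 66.0 CPM in APOE4 sham and at 109, 69.8 and 72.6 CPM in APOE4 microbead libraries. Both genes thus had no overlap between groups in either genotype, with a smaller difference in APOE4. With limma on log2(TPM + 1) Cox4i1 was at -0.05 in APOE4. Cox8a and Ndufc2 had -0.15 ± 0.27 and -0.25 ± 0.40 in APOE4, and their groups overlapped.

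The lowest p in APOE4 was that of Cox6b1, at 79.0, 56.3, 62.1 and 56.6 CPM in APOE4 sham and 20.1, 39.9 and 41.5 CPM in APOE4 microbead libraries. Its log2 fold change was -0.89 ± 0.31 (SE; unadjusted p = 0.00778, adjusted p = 0.416). Uqcrb, a small subunit near the quinone site of complex III, stood at 10.8, 34.8, 12.4 and 20.8 CPM in APOE4 sham and at 0, 13.3 and 3.46 CPM in APOE4 microbead libraries (-1.72 ± 0.62, adjusted p = 0.454). The groups overlapped and the microbead group held 10 reads. Uqcrq stood at 25.2, 33.1, 37.3 and 20.8 CPM in APOE4 sham and at 10.1, 24.9 and 8.64 CPM in APOE4 microbead libraries (-0.97 ± 0.41, adjusted p = 0.626), with replicate 2 inside the sham range. In complex I Ndufa5 had -1.33 ± 0.66 and Ndufb7 -0.84 ± 0.43, in complex II Sdha had 0.42 ± 0.24 and Sdhd -0.64 ± 0.46, and in complex V Atp5c1, the rotating gamma subunit, had 0.40 ± 0.29 and Atp5a1 0.34 ± 0.21. None of these passed the test, and with limma on log2(TPM + 1) Atp5a1 was at -0.13.

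The difference between the genotypes in the response to microbeads was tested as an interaction. No member was called by edgeR or limma-voom, beside 0.092% of all genes, and DESeq2 gave an adjusted p to 8 of the 71 members and called 0. An unadjusted p under 0.05 was reached by 0 members with a larger and 13 with a smaller fold change in APOE4. Over all 7605 genes tested it was reached by 267 and 356. The median interaction was -0.56 and 62 of 71 members were below 0, beside a median of 0.01 over all genes. Cox6b1 had -1.76 ± 0.42 (adjusted p = 0.115), and was called (1 member) with no filter on low counts. Cox8a had -1.19 ± 0.37 (adjusted p = 0.262), Ndufc2 -1.72 ± 0.58 (0.296), Uqcrq -1.52 ± 0.54 (0.336), Cox4i1 -0.56 ± 0.29 (0.630) and Cox7a2l -0.49 ± 0.37 (0.835). A difference between the genotypes was therefore not shown for any of the 4 members called in APOE3.

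Sham libraries of the genotypes were compared because each fold change rests on them. No member was called by edgeR, DESeq2 or limma-voom, beside 0.0131% of all genes. An unadjusted p under 0.05 was reached by 6 members higher in APOE4 sham and 0 lower, beside 185 and 149 of 7605 genes. The median log2 difference over the members was 0.085. The 6 were Cox6b1 (0.68 ± 0.28), Cox8a (0.53 ± 0.25), Ndufa6 (0.63 ± 0.30), Ndufb2 (1.46 ± 0.57), Ndufc2 (1.11 ± 0.40) and Sdhc (1.35 ± 0.45), each with an adjusted p of 0.961. Ndufc2 stood at 28.7, 18.2, 21.3 and 20.8 CPM in APOE4 sham, above all 4 APOE3 sham libraries, and replicate 1 lay within the range of the APOE3 microbead libraries. Cox6b1 and Cox8a in APOE4 sham also reached into the APOE3 microbead range. Without APOE3 sham replicate 2 the median over the members was -0.01, so no direction held for the set.

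Within microbead retinas no member was called between APOE4 and APOE3 by edgeR or limma-voom, beside 0.579% of all genes, nor among the 22 members to which DESeq2 gave an adjusted p. An unadjusted p under 0.05 was reached by 17 members lower in APOE4 and 0 higher, beside 394 and 354 of 7605 genes. The median log2 difference over the members was -0.49. In 14 members every APOE4 microbead library lay below every APOE3 microbead library, beside 7.18% of all genes, and in 0 members above, beside 7.3%. Uqcrq had -1.41 ± 0.41 (adjusted p = 0.136), Cox6b1 -1.07 ± 0.32 (0.147), Uqcrb -1.98 ± 0.64 (0.192) and Cox5b -0.98 ± 0.34 (0.250). Without APOE4 microbead replicate 2, Uqcrb and Uqcrq were called (edgeR adjusted p = 0.0488 and 0.0473), beside 46 of 8252 genes tested there. Replicate 2 was the highest APOE4 microbead library for both, so leaving it out widens these differences by construction. The APOE3 microbead libraries enter this comparison, the interaction and the APOE3 comparison, so the 3 are not independent.

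Summed over the 84 members, the level was 2551, 1965, 2618 and 2500 CPM in APOE3 sham and 3437, 4091 and 2779 CPM in APOE3 microbead libraries. It was 2716, 2579, 2428 and 2449 CPM in APOE4 sham and 2569, 2528 and 2428 CPM in APOE4 microbead libraries. The 3 APOE3 microbead libraries were the highest of the 14, and the other 11 lay within 1965 to 2716 CPM. Of the 71 members tested, 26 had their highest level of all 14 libraries in APOE3 microbead replicate 2 and 20 in replicate 1, but only 2 in replicate 3. In replicate 3, 47 of 71 members lay above the APOE3 sham mean, against 57 in replicate 1 and 69 in replicate 2.

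Markers of monocytes and macrophages were higher in the same APOE3 libraries, although the sort was for Ly6c- and Fcrls+ cells. Each of the 12 markers had a read, but only 3 passed the filter on low counts. Lyz1 and Ly6c2 had 11 and 17 reads over the 14 libraries. The 12 markers summed to 61.0 to 79.0 CPM in APOE3 sham and to 448, 710 and 155 CPM in APOE3 microbead replicates 1, 2 and 3. In APOE4 they summed to 28.4 to 66.5 CPM in sham and to 58.8 to 105 CPM in microbead libraries. On the means of the groups 10 of 12 were higher after microbeads in APOE3, with S100a4, S100a6 and Lyz1 at 0 in sham. Ly6c2 (2.22 and 2.09 CPM) and F13a1 (13.8 and 7.18 CPM) were not higher. In APOE4 the mean of the marker sum was 44.7 CPM in sham and 82.0 CPM after microbeads, while that of the members was 2543 and 2509 CPM. The 5 B cell markers, led by Ighm, summed to 286 to 315 CPM in APOE3 sham and to 106 to 144 CPM in APOE3 microbead libraries, and to 246 to 335 and 162 to 248 CPM in those of APOE4. The part of these markers in the members' levels was not tested. Without APOE3 microbead replicates 1 and 2, 1 APOE3 microbead library was left. The median log2 fold change in APOE3 was then 0.19, that of the interaction -0.19 and that of the microbead genotype comparison -0.09. The libraries left out were also the 2 highest in the members' summed level. Smaller differences thus follow in part from that choice, and the values do not separate the markers from it. With that 1 library the log2 fold changes in APOE3 were 0.75 for Cox4i1, 0.56 for Cox7a2l, 0.72 for Cox8a and 1.71 for Ndufc2. With all 3 microbead libraries they were 0.89, 1.03, 1.04 and 1.47. The 11 rod photoreceptor markers summed to 273 to 2041 CPM in APOE3 sham and 156 to 750 CPM in APOE3 microbead libraries. In APOE4 these sums were 401 to 1656 CPM in sham and 267 to 716 CPM in microbead libraries. On the means of the groups 11 of 11 were lower after microbeads in APOE3 and 9 of 11 in APOE4, although the sums overlapped. Their part in the members' levels was not tested.

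**Figure D4:**
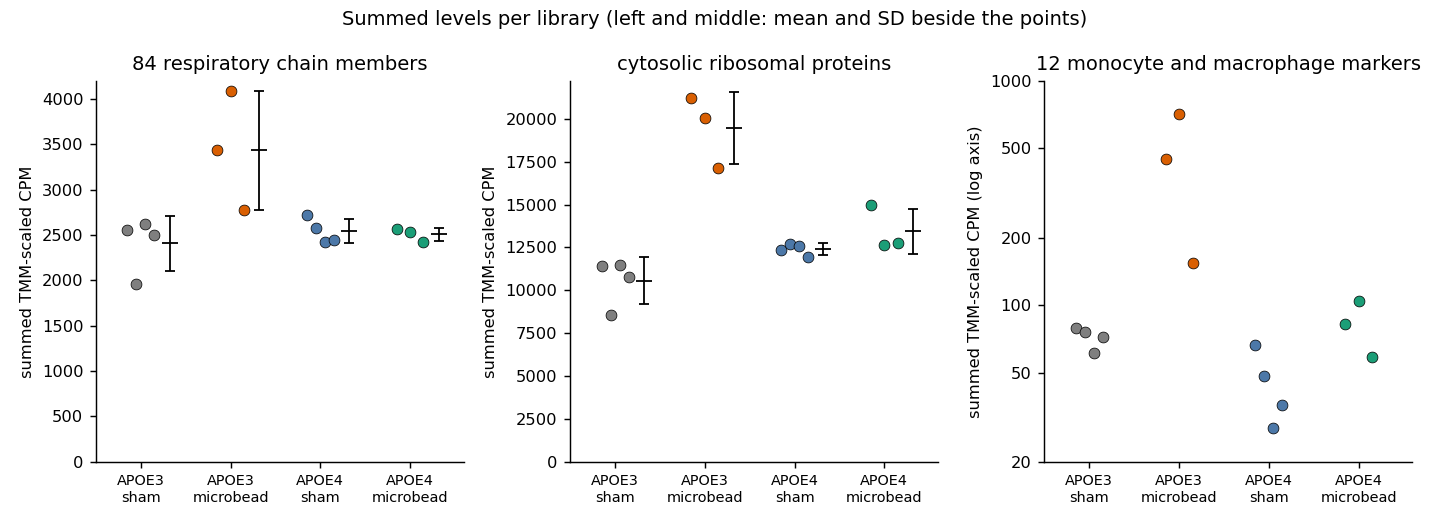
Summed TMM-scaled CPM per library of the 84 members (left), cytosolic ribosomal proteins (middle) and 12 monocyte and macrophage markers (right, log axis). In all 3 panels the APOE3 microbead libraries are the highest 3 of 14, and replicate 3, at 2779 CPM for the members and 155 CPM for the markers, is the lowest of them.

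Other genes of the pathway were read from lists. Of 13 subunits encoded by mitochondrial DNA, 12 were tested and 0 were called in either genotype, with a median log2 fold change of 0.57 in APOE3 and 0.29 in APOE4. The 13 summed to 2687, 1921, 2143 and 1659 CPM in APOE3 sham and to 5384, 2950 and 1899 CPM in APOE3 microbead libraries. Microbead replicate 1 was thus the highest, and replicate 3 lay within the sham range. mt-Co1, the catalytic subunit of complex IV, had 0.69 ± 0.22 in APOE3 (adjusted p = 0.0672), and mt-Nd1 had 0.59 ± 0.26 (0.272). Nuclear copies of mitochondrial DNA share reads with these genes, and mt-Nd3 was at 0 in all APOE4 microbead libraries. Of 51 assembly factors 19 were tested and 0 called, with a median of 0.21 in APOE3 and 0.03 in APOE4. Coa5, needed to assemble complex IV, had 1.04 ± 0.36 in APOE3 (adjusted p = 0.0976), and Tmem186, a factor of complex I assembly, had -1.54 ± 0.66 (0.239).

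Of 22 electron carriers and related genes 14 were tested and 0 called (median -0.11 in APOE3 and 0.02 in APOE4), and Ucp2, the mitochondrial uncoupling protein of myeloid cells, had 0.65 ± 0.22 in APOE3 (adjusted p = 0.0867). Of 16 genes of pyruvate dehydrogenase and the TCA cycle 15 were tested and 0 called, with medians of 0.16 and 0.06. Cs, citrate synthase, had 0.59 ± 0.31 in APOE3 (adjusted p = 0.391). Of 14 regulators of mitochondrial biogenesis 9 were tested and 0 called (medians -0.11 and 0.07). Yy1, a transcription factor with sites in such promoters, had -1.32 ± 0.48 in APOE3 (adjusted p = 0.129), at 17.8 ± 5.20 CPM (SD, n = 4) in sham and 7.40 ± 3.39 CPM (n = 3) in microbead libraries. Of 9 hypoxia responsive genes 5 were tested and 0 called (medians 0.12 and 0.02), with Higd1a, which binds complex IV, at 1.47 ± 0.45 in APOE3 (adjusted p = 0.0520) and Pdk1, which restrains pyruvate dehydrogenase, at -0.90 ± 0.34 (0.154).

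Cytosolic ribosomal protein genes, read as short abundant mRNAs of another complex, rose in APOE3: 57 of 81 tested were called higher and 0 lower, with a median of 0.90. Rpl41 had 1.29 ± 0.21 (adjusted p = 1.98e-04) and Rpl23a 1.14 ± 0.20 (5.13e-04). In APOE4 0 of 81 were called, with a median of 0.09. Their summed level was 10557 ± 1384 CPM (SD, n = 4) in APOE3 sham and 19470 ± 2083 CPM (n = 3) in APOE3 microbead libraries, so the members' shift of 0.50 in APOE3 stood beside a larger one in these genes. Members are short as well, with a median effective length of 853 bases beside 3122 for all genes tested. Across genes, Spearman's rho of length and log2 fold change in APOE3 was -0.12 over all genes and -0.16 over the members. In APOE4 it was 0.02 and 0.31. Genes are not independent replicates.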

How the data were processed

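RNA of sorted retinal microglia was measured in 14 libraries. The submitters' processing notes name Salmon 1.4.0, R 4.0.3, DESeq2 1.30.1 and the mm10 build. The deposited files hold estimated counts per transcript of each library, and the authors' deposited series table holds TPM per gene. Of 116945 transcripts 116023 were assigned to 35475 genes with GENCODE M21, and 379 symbols were renamed through RefSeq synonyms; all 1176 recomputed member TPM values lay within 1% of the table. Estimated counts were summed per gene and rounded. Genes were kept with filterByExpr by group (minimum count 10, minimum total 15) and tested two-sided with the edgeR 4.0.16 quasi-likelihood test (R 4.3.3, robust, TMM) with 4 group means over all libraries. Adjusted p-values are Benjamini-Hochberg over 7605 genes, called under 0.05, and SEs derive from the F statistic. The common biological coefficient of variation was 0.274. The edgeR fit was tried on simulated counts, and the other steps were not. DESeq2 1.42.0, limma 3.58.1 and other alternatives are in the closing section. Members with values are those called, those with the smallest unadjusted p in each complex (3 in APOE3, 2 in APOE4), the highest and lowest in TPM of each complex and the isoform pairs; any others were chosen after their values were seen. Members and lists were chosen with earlier results of these data known. Some results are not reported here.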

Additional observations from a re-analysis of the deposited data

Results flagged for a closer look

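In 76 groups of 4 sham libraries checked for a library standing apart (Dixon's test at 95%), 3 did, and chance alone gives about 1 in 20. Atp5b stood at 213.4 CPM in APOE3 sham replicate 4, above 111.7 to 128.2 CPM in the others, and at 122.6 CPM in APOE4 sham replicate 4, below 161.5 to 168.9 CPM in the others. Uqcrc2 stood at 14.04 CPM in APOE3 sham replicate 2, below 24.4 to 25.8 CPM in the others. For 1 member, Cox6b1, every APOE3 microbead library lay above and every APOE4 microbead library below all sham libraries of its genotype. Over all genes 7.59% were so separated higher in APOE3 and 4.06% lower in APOE4. The share of genes with both was not counted. In sham, Cox6b1 was higher in every APOE4 than in every APOE3 library (means 63.5 and 39.2 CPM), and these libraries enter both comparisons. The test of the difference in response between genotypes gave an interaction of -1.76 on the log2 scale (edgeR adjusted p = 0.115), which missed the threshold.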

How the results depend on the processing

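Of 64 results of named members in the APOE3 and APOE4 microbead comparisons, 2 gained a call in APOE3 (Atp5h and Ndufa13) and 25, none of them called, had the other sign under an alternative (57 values, 0 called; the cause was not tested). With limma on log2(TPM + 1) these were Sdha -0.16 in APOE3 and Atp5a1 -0.13, Atp5c1 -0.00, Atp5g3 -0.19, Atp5o -0.12, Cox4i1 -0.05, Cox6a1 -0.11, Ndufa13 -0.25, Sdhb -0.33, Uqcrc1 -0.45 and Uqcrh -0.32 in APOE4. With library totals these were Atp5g3 -0.09, Atp5o -0.00, Cox7a2 -0.11, Ndufa13 -0.16, Sdhb -0.19, Uqcrc1 -0.09, Uqcrc2 -0.23 and Uqcrh -0.11 in APOE4. With length offsets these were Sdha -0.20 in APOE3 and Uqcrc1 -0.11 in APOE4. With limma-voom these were Uqcrc2 -0.03 in APOE4. With the replicate block these were Ndufs1 -0.03 in APOE3 and Atp5b 0.02 and Sdhb -0.01 in APOE4. Without both APOE3 microbead 1 and 2 these were Atp5g1 -0.76, Atp5o -0.23, Cox5a -0.47, Cox6a1 -0.30, Cox7b -0.10, Ndufa4 -0.19, Sdha -0.18 and Sdhb -0.13 in APOE3. As each library was left out, the ranges of those that changed sign were Cox5a -0.39 to 0.47, Ndufa4 -0.06 to 0.43, Ndufa5 -0.10 to 0.42, Ndufs1 -0.10 to 0.43, Sdha -0.18 to 0.26 and Sdhb -0.04 to 0.63 in APOE3 and Atp5b -0.14 to 0.09, Atp5g3 -0.05 to 0.28, Atp5j2 -0.48 to 0.04, Ndufa13 -0.06 to 0.21, Sdhb -0.15 to 0.20, Sdhc -0.42 to 0.06, Uqcrc1 -0.22 to 0.31, Uqcrc2 -0.31 to 0.26 and Uqcrh -0.02 to 0.26 in APOE4. Members called in APOE3 (4) fell to 0 with library totals, length offsets, only the libraries compared, limma on log2(TPM + 1) and without both APOE3 microbead 1 and 2, and ranged from 0 to 5 as each library was left out; Cox4i1, Cox7a2l, Cox8a and Ndufc2 were called in 18 of 24, 16 of 24, 17 of 24 and 12 of 23 alternatives. The cause was not tested, apart from the fewer libraries and genes by construction. With no filter on low counts 1 member was called in APOE4 (Atp5g2, log2 fold change -3.80) and 1 in the interaction (Cox6b1), and calls between genotypes in microbead retinas ranged from 0 to 2 as each library was left out. With library totals and with limma on log2(TPM + 1) the median of all genes moved to -0.23 and -0.26 in APOE4, -0.21 and -0.27 in the interaction, and 0.16 and 0.16 in sham. The members' medians there were -0.24 and -0.36 in APOE4, -0.80 and -0.93 in the interaction, and 0.25 and 0.33 in sham. Without both APOE3 microbead 1 and 2 they were 0.19 in APOE3, -0.19 in the interaction and -0.09 in microbead retinas. Over the libraries left out in turn, the APOE3 median stayed within 0.36 to 0.65, and where an arm kept 1 library its spread was taken from the other groups. All calls over all genes in APOE3 (397) were 150 with library totals, 223 with length offsets, 228 with only the libraries compared and 47 with limma on log2(TPM + 1). Deviations from the group means were compared between same-numbered libraries of different groups (19 pairs, r from -0.14 to 0.10). Of 14 libraries, 4 were closest to their own number. Such weak correlations cannot exclude that same-numbered retinas share an animal or batch. The replicate block gave 3 members called and a median of 0.53 in APOE3, and 0 called elsewhere. Depth limits most members, with a median of 17.0 reads per library.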
